A study of Mus musculus with 2 samples.

Results

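Of 17922 loci at which chromatin came down with the microRNA miR-9 in mouse lung fibroblasts, 267 lay inside the coding exons or 5' untranslated regions (5' UTRs) of genes. They were chosen by the annotation that HOMER, a peak annotation program, gave to the centre of each peak. Peaks labelled exon numbered 229 and peaks labelled 5' UTR numbered 38, and the exon number and the number of exons in the same label placed each peak along its transcript. HOMER gives a centre near a transcription start site (TSS) or a transcript end to another class first. The centres of these peaks therefore lay outside a window of 1000 bases upstream to 100 bases downstream of an annotated TSS, and of 100 bases upstream to 1000 bases downstream of a transcript end, although wide peaks could reach into these windows.

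The study captured endogenous mature miR-9 with biotinylated antisense oligonucleotides from cross-linked chromatin of MLg cells (ATCC CCL-206), a fibroblast line from mouse lung, and sequenced the DNA that came with it (ChIRP-seq). There was 1 miR-9 capture library and 1 input library of untreated MLg chromatin, the list was called on the capture over the input, and no replicate or control-probe library was analysed here. The list gives positions and widths but no enrichment, since its score was 0 at every peak, so the depth behind a peak is unknown. Peaks of 1 library are not replicates, and the intervals and p-values below cover counting error within this list only.

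A coding exon holds codons of a protein, and a 5' UTR is the stretch of an mRNA that the ribosome scans before the start codon. Together they make up a small part of the genome, rarely contain mobile repeats, and are rich in G and C, above all at the start of a gene. In the cytoplasm miR-9 guides Argonaute to mRNAs through its seed, bases 2 to 8 counted from its 5' end, which mostly pairs with 3' UTRs. Mature mouse miR-9 is shown first because stretches of it were searched in the peaks. Its seed is in capitals, and the sequence is that of RefSeq for GRCm38.p6.
mmu-miR-9-5p: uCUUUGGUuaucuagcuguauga

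Stretches identical to at least 10 consecutive bases of miR-9, called miR-9 words here, were found on either strand in 14 of the 267 peaks, 1 in each. The windows below hold the 4 longest words, the 2 words that contain the whole seed, the 2 words in 5' UTR peaks, and 1 of the words that end at the 3' end of miR-9. Each is read 5' to 3' on the strand that reads as miR-9, from the mm10 genome, with the word in capitals.
Kat2b: agttaataTGGTTATCTAGCTtcattaaca
Dscc1: cgaatccttTCTAGCTGTATattttcaatt
Gas2l3: gatctctctaTTTGGTTATCTggcttacta
Gpx8: cttaggatttTAGCTGTATGAagatttttt
Akap4: atttgagggaCTTTGGTTATtgttggtgtt
Mus81: cagcagctccTCTTTGGTTAggaagctgtg
Sdc2: aagccaccagTCTAGCTGTAgagtgctgta
Apobec1: ctgccgcctgATCTAGCTGTtcgagtttct
Nuak1: agcaaaggagAGCTGTATGAttacatcagt

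The longest word, 13 bases that match bases 5 to 17 of miR-9, lay at chr17:53632493-53632505 in Kat2b, the gene of the histone acetyltransferase PCAF. The peak was annotated to exon 5 of 18, but the word itself was in the intron before that exon, 75 bases from the peak centre. Words of 11 bases were found at Dscc1, whose product helps to load the replication clamp for cohesion, at Gas2l3, which codes for a linker of actin and microtubules, and at Gpx8, of the glutathione peroxidase family. In Dscc1 the word lay in coding exon 6 of 10, 7 bases from the peak centre (chr15:55083432-55083442, bases 11 to 21 of miR-9), and in Gas2l3 in coding exon 5 of 12, 17 bases from it (chr10:89430894-89430904, bases 3 to 13). In Gpx8 it was intronic, at chr13:113045766-113045776, and ran to the last base of miR-9, base 23.

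The seed was contained in 2 of the 14 words. In Akap4, the gene of an anchoring protein of the sperm tail, bases 2 to 11 of miR-9 lay at chrX:7075992-7076001 in coding exon 5 of 6. In Mus81, a DNA endonuclease gene, bases 1 to 10 lay at chr19:5486317-5486326 in coding exon 5, next to the exon that carried the label of the peak. Both of these words were antisense to the mRNA, so the mRNA itself carries their complement. The bases of miR-9 held most often were 14 and 15, in 11 of the 14 words, whereas base 1 was held in 1 and base 23 in 3. A word of 10 bases can lie over a middle base of miR-9 in more ways than over an end base or the whole seed. These counts were therefore not read as a preference within miR-9.

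The words were spread over the parts of the gene. Of the 14, 6 lay in a coding exon, 3 in a UTR exon and 5 in an intron that the peak reached, and 9 read in the direction of the mRNA against 5 antisense to it. In the 5' UTR peaks the words were at chr15:32920793-32920802 in exon 1 of Sdc2, the gene of the heparan sulfate proteoglycan syndecan-2, and at chr6:122602413-122602422 in exon 1 of Apobec1, the gene of the deaminase that edits Apob mRNA. Nuak1, coding for a kinase related to AMPK, held its word in coding exon 3 of 7 at chr10:84394080-84394089. The remaining 5 words, of 10 bases each, were at Ccr1l1 (a chemokine receptor gene), Cirbp (a cold-inducible RNA-binding protein), Eea1 (an early endosome tether), the homeobox gene Hoxc9 and the amino acid transporter gene Slc38a10.

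No difference from the rest of the list was detected for such words. They occurred in 14 of 267 peaks (5.24%, exact 95% interval 2.90 to 8.64%) and in 1068 of the 17655 other peaks (6.05%, 5.70 to 6.41%), beside 6.04% of all peaks. The difference of -0.81 percentage points did not pass a two-sided Fisher's exact test (p = 0.697, also after Benjamini-Hochberg adjustment over the 6 comparisons made with the rest). Words of at least 8 bases occurred in 63 of 229 coding exon peaks (27.5%) and 10 of 38 5' UTR peaks (26.3%), against 4663 of the 17655 other peaks (26.4%). Against promoter-TSS peaks, with a word in 4.86%, or with words of 8 bases, the sign of the difference turned, and neither difference passed the test.

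The share of peaks in coding exons was close to their share of the genome, and that in 5' UTRs was above it. Coding exon peaks made up 1.28% of the list (exact 95% interval 1.12 to 1.45%), and coding bases outside the TSS and end windows made up 1.23% of the assembled chromosomes, a ratio of 1.04 (0.91 to 1.18). The 5' UTR peaks made up 0.212% of the list (0.150 to 0.291%) on 0.0925% of the bases, a ratio of 2.29 (1.62 to 3.14). These ratios describe how the rule divided the list and carry no test. A further 702 peaks of other classes touched a coding base, so that 945 peaks in all (5.27%) had coding sequence under them. Of these 945 peaks, 482 were annotated as intronic and 135 as promoter-TSS.

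Along the transcripts, coding exon peaks were more frequent in first exons than the coding sequence there. First exons of transcripts with several exons held 27 of the 229 peaks (11.8%, 7.92 to 16.7%), beside 4.87% of the coding bases that could have received the label, a ratio of 2.42. Single-exon genes held 10 (4.37%, beside 5.22% of the bases), internal exons 162 (70.7%, beside 73.0%) and last exons 30 (13.1%, 9.02 to 18.2%, beside 16.9%). First and single exons together held 37 (16.2%, 11.6 to 21.6%), beside 10.1% of the bases. First exons held 21 of 131 wide peaks, those of more than 250 bases (16%, 10.2 to 23.5%), and 6 of 98 narrow ones (6.12%, 2.28 to 12.9%), a difference that was not tested. Among wide peaks alone the share in first and single exons was 22.9%.

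**Figure D1:**
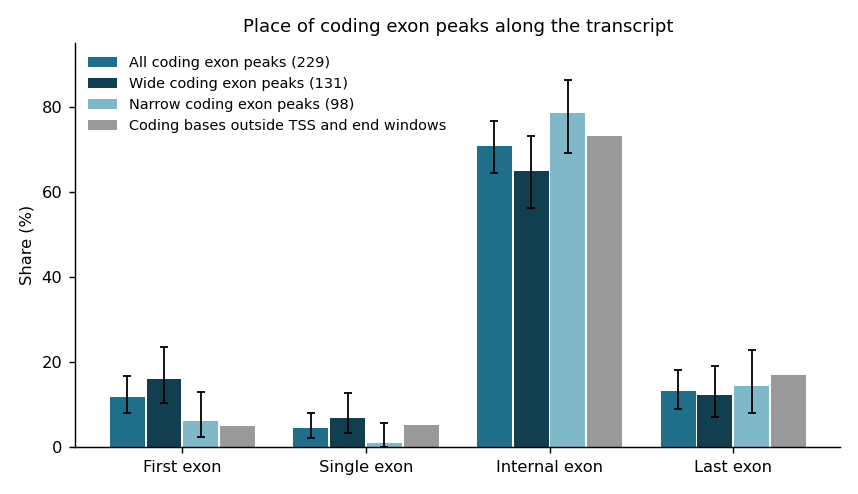
Share in percent of coding exon peaks in first, single, internal and last exons, for all 229 peaks, the 131 wide and the 98 narrow ones, beside the share of coding bases outside the TSS and end windows. Whiskers are exact 95% binomial intervals, and the share of all and of wide peaks in first exons lies above the grey bar of bases (4.87%).

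The transcripts that carried a coding exon peak had a median of 10 exons (quartiles 6 and 18, highest 79), and the median peak was in exon 4. Exon 1 held 37 peaks, exon 2 held 41 and exon 3 held 25. When the coding sequence of each gene was cut into 3 parts of equal length, 99 of 225 peaks were centred in the part next to the start codon (44.0%, 37.4 to 50.8%, beside 32.6% of the bases). The middle part held 67 (29.8%, beside 34.4%) and the part next to the stop codon 59 (26.2%, beside 33%). Within internal and last exons the part next to the start codon held 69 of 188 (36.7%, 29.8 to 44.0%, beside 30.2% of the bases), so there the interval included the share of the bases.

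Peaks in first exons had a median GC content of 66.2%, against 63.1% in single, 47.7% in internal and 43.1% in last exons. Examples chosen after their values were seen were Vhl, the gene of the tumour suppressor that marks HIF for degradation, with a peak of 573 bases, and Smchd1, of X-chromosome silencing, with 424 bases. Others were Dhx30, an RNA helicase gene, with 675 bases, and Hexim1, a single-exon gene of an inhibitor of the elongation factor P-TEFb, with 570 bases. From the chromatin list, Arid1b, a subunit gene of the BAF remodelling complex, had 1254 bases of peak on exon 1 of 20, at chromosome 17, 4994791 to 4996044. Junb, an immediate early gene of the AP-1 family with a single exon, had 649 bases, centred 1308 bases downstream of the TSS.

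The widths were divided into 2 classes at 250 bases, with a median of 156 bases in narrow and 577 bases in wide peaks. The widest narrow peak had 234 bases and the narrowest wide peak 268 bases. These are the values nearest to the cut, so the space between them does not itself show 2 classes. The authors merged calls made at more than 1 fragment shift, a setting of the peak caller. Whether the 2 classes come from these settings was not tested. Wide peaks made up 131 of the 229 coding exon peaks (57.2%, 50.5 to 63.7%) and 25 of the 38 5' UTR peaks (65.8%, 48.6 to 80.4%). Together these were 156 of 267 (58.4%), against 9282 of 17655 other peaks (52.6%), beside 52.7% of all peaks. The difference of 5.85 percentage points did not pass Fisher's exact test (adjusted p = 0.0765), although it did without chromosome 6 (7.23 points, adjusted p = 0.0339). Against promoter-TSS peaks, of which 67.7% were wide, the sign turned (-9.24 points, exact test, adjusted p = 0.0652), and so it did with 1 peak per gene (-5.49 points, exact test, adjusted p = 0.0878). By exon class the share of wide peaks was 21 of 27 in first, 9 of 10 in single, 85 of 162 in internal and 16 of 30 in last exons.

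**Figure D2:**
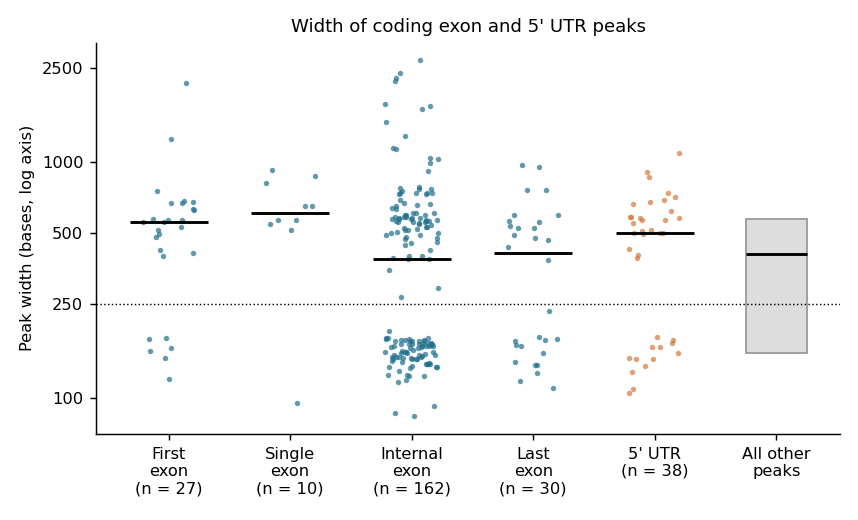
Width of each coding exon peak by exon class and of each 5' UTR peak (points, bases on a log axis, lines at the medians), beside the quartiles and median of all other peaks (grey box). The dotted line at 250 bases divides narrow from wide peaks, and 21 of 27 first-exon peaks and 9 of 10 single-exon peaks lie above it.

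Most wide peaks reached past their exon. The numbered exon was found under the peak in RefSeq for 223 coding exon peaks, and its median length was 213 bases (quartiles 128 and 768), beside a base-weighted median of 209 over all such coding bases. The peak covered the whole exon in 102 of the 223 cases (45.7%), crossed one end in 68 (30.5%) and lay wholly inside in 53 (23.8%). Among the 127 wide peaks 82 covered the exon, and the median share of a wide peak inside its exon was 38.8%. Among the 96 narrow peaks 20 covered it, and the median share inside was 84.5%. For the 5' UTR peaks the median share inside the exon was 73.8%, with 15 of 38 covering the exon. Exons of more than 1000 bases carried 47 of the 223 peaks (21.1%, 15.9 to 27.0%), beside 23.7% of the coding bases.

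The widest coding exon peaks mostly reached far past their exon. The widest, of 2684 bases, was at exon 2 of 4 of Rnf151, coding for a RING finger protein known from mouse testis, at chromosome 17, 24716186 to 24718869, and 5.44% of it lay in that exon. It was followed by Naca with 2381 bases, and by Prss12, the gene of the protease neurotrypsin, with 2271. Next came Cirbp with 2202 and Cdk12, the gene of a kinase of the RNA polymerase II tail, with 2146 bases around exon 1 of 14. Nap1l1, a histone chaperone gene, had 1748 bases. Hnrnpa2b1 at 1677, the predicted gene Gm21119 at 1468 and Gpx8 at 1290 were also among the 10 widest. Of the peak at Gm21119, 91.2% was sequence present at 5 or more places of the genome. The peak at Prss12 was centred 2549 bases from the TSS of Snora24, a small nucleolar RNA gene.

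In 7 genes 2 or more peaks lay on coding exons or 5' UTRs, 17 peaks in all. Naca, which codes for the alpha subunit of the nascent polypeptide-associated complex, had 4. One of 181 bases was on the 5' UTR, and 3 of 170, 989 and 2381 bases were in exon 3 of 9, an exon of 5916 bases that in mouse is kept in the muscle form of the protein. The last of these spanned 128042247 to 128044627 of chromosome 10, wholly inside the exon. Fam120a, the gene of an RNA-binding scaffold protein, had peaks of 1129, 733 and 557 bases on the consecutive exons 11, 12 and 13 of 18 (chromosome 13, 48891760 to 48902811), and 11 other peaks within the gene or 2000 bases of it. Hnrnpa2b1, of the nuclear RNA-binding hnRNP family, had 1677 bases over exon 4 and 163 over exon 8 of 11, with 4 other peaks. The wider peak also covered exons 2, 3, 5 and 6.

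Irf2bp2, a transcriptional corepressor gene, had a peak on each of its 2 exons, of 566 and 523 bases. Mki67, the gene of the proliferation marker Ki-67, had 176 bases at exon 3 and 473 bases at exon 8 of 14 and no other peak. Ccdc39, required for assembly of motile cilia, had 581 bases at exon 13 and 474 bases at exon 20 of 20. Carns1, the carnosine synthase gene, had 155 and 157 bases at exons 8 and 9 of 10, also with no other peak. For Fam120a and Ccdc39, the deposited gene of the peaks was a neighbour, since that column names the nearest TSS.

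**Figure D3:**
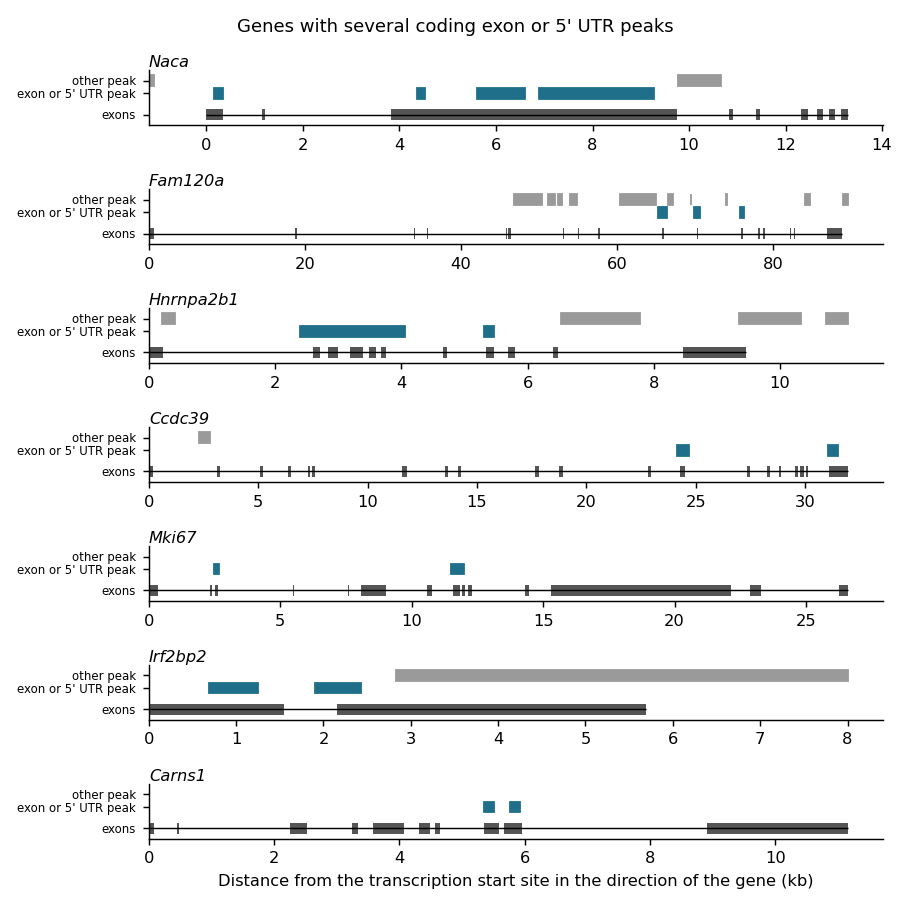
The 7 genes with 2 or more coding exon or 5' UTR peaks (blue), with the exons (dark boxes) and all other peaks within the gene or 2000 bases of it (grey), as distance from the TSS in kb in the direction of the gene. Fam120a has 11 other peaks beside its 3, while Mki67 and Carns1 have none.

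Peaks in 5' UTRs sat close to gene starts. Of the 38, 28 lay in a first exon and 30 more than 100 and up to 400 bases downstream of a TSS, the nearest being Apobec1 at 108 bases. The median GC content was 63.9%, against 49.6% for coding exon peaks, and 52.3% for promoter-TSS peaks. The 10 widest were led by Gosr2, the gene of a Golgi SNARE, with 1085 bases, Fubp3, which codes for a single-stranded nucleic acid binder, with 909, and Hsph1, the gene of the chaperone Hsp105, with 865. Mov10, the gene of an RNA helicase that joins Argonaute complexes, followed with 741 bases, centred 173 bases downstream of a TSS. Apobec1 had 707 bases, Sdc2 687, Srgap3 (a GTPase regulator) 679, Syt11 (a synaptotagmin) 660, Rnf44 (a RING finger protein) 620 and Peak1 585. Peak1, which codes for a pseudokinase of the actin cytoskeleton, had its 5' UTR peak on exon 3 of 7, 99245 bases from the TSS. Of the 38 peaks, 3 were more than 10000 bases from a TSS, and that of Peak1 was the farthest. The others, named after their values were seen, were Rev1 at 54961 bases and Usp44 at 12453.

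G-quadruplex (G4) motifs, searched on both strands as 4 runs of 3 or more G that 1 to 7 other bases separate, were more frequent in these peaks than in the rest of the list. They occurred in 29 of 267 (10.9%, 7.4 to 15.2%) against 983 of 17655 (5.57%, 5.23 to 5.92%), beside 5.65% of all peaks. The difference of 5.29 percentage points passed Fisher's exact test (adjusted p = 0.00106). Of the 5' UTR peaks alone, 11 of 38 held a motif (28.9%, 15.4 to 45.9%, exact test, adjusted p = 2.96e-05 against the rest, a comparison added after seeing the data). Coding exon peaks alone had 18 of 229 (7.86%, 4.72 to 12.1%, exact test, adjusted p = 0.218). Against promoter-TSS peaks, with a motif in 16.6%, the sign turned (-5.72 points, exact test, adjusted p = 0.0683). In the central 150 bases of the peaks, 2 of the 267 held a motif (0.749%) against 2.03% of the rest (exact test, adjusted p = 0.221). By exon class, a motif was held by 2 of 27 first-exon peaks (7.41%, 0.91 to 24.3%) at a median of 66.2% GC. It was held by 2 of 10 single-exon peaks (20%) at 63.1%, and by 13 of 162 internal exon peaks (8.02%) at 47.7%. In last exons 1 of 30 peaks (3.33%) held a motif, at 43.1%, and the 5' UTR peaks had a median of 63.9% GC. Whether the share follows GC content was not tested.

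Named peaks with a motif were those labelled 5' UTR at Fubp3, Hsph1, Mov10 and Rnf44. Among peaks labelled coding exon they were Cirbp, Cdk12, Mus81 and 2 of the 3 exon 3 peaks of Naca. The motif was searched over the whole peak, and its place relative to the exon was not determined. The Naca peaks lay wholly inside their exon, but of the Cirbp peak 4.95% did and of the Mus81 peak 15.3%. A motif was held by 26 of the 156 wide peaks (16.7%), against 9.32% of the other wide peaks. Among the other 5' UTR peaks with a motif, named after their values were seen, were Ccnc, the gene of cyclin C of the Mediator kinase module, with 498 bases and Aco1, an aconitase that binds iron-responsive mRNA elements, with 500 bases. The motif is a pattern of letters and no measure of folded DNA.

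Runs of CA or TG, 8 or more units in a row, were rarer than elsewhere. They were in 12 of 267 peaks (4.49%, 2.34 to 7.72%) against 2363 of 17655 (13.4%, 12.9 to 13.9%), beside 13.3% of all peaks, a difference of -8.89 percentage points (exact test, adjusted p = 5.3e-06). Against promoter-TSS peaks, with 8.54%, the difference was -4.05 points and no longer passed (exact test, adjusted p = 0.0683). The detailed annotation by HOMER named a repeat at 8726 of the 17655 other peaks. At the 267 it gave the exon or 5' UTR itself, so it does not show whether they held repeats. The comparison was therefore not independent of the rule, and how much of the difference the rule set was not tested. Of the 12 peaks, 9 were labelled internal exon and 3 were labelled 5' UTR, and none was labelled a first, single or last coding exon. All 12 were wide peaks, of which there were 156 (7.69%), against 17.2% of the other wide peaks. In the central 150 bases, 3 of the 267 held a run (1.12%) against 7.73% of the rest. Where the runs lay relative to the exons was not determined. Named peaks with a run were Nuak1, Srgap3 and Med1, of the Mediator list.

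Sequence with many copies was also rare in coding exons and 5' UTRs. A peak was called high copy when over 50% of its 32-base stretches had 5 or more copies in the genome. This held for 10 of 267 peaks (3.75%, 1.81 to 6.78%) against 3849 of 17655 (21.8%, 21.2 to 22.4%), beside 21.5% of all peaks, a difference of -18.06 percentage points (exact test, adjusted p = 7.66e-16). Against promoter-TSS peaks, with 4.19%, it was -0.44 points (exact test, adjusted p = 0.866). This comparison was not independent of the rule, which left the 8726 peaks with a repeat named in the detailed annotation among the 17655 others. At the 267 peaks that annotation gave the exon or 5' UTR itself, so it does not show whether they held repeats. How much of the difference the rule set was not tested. Reads in high-copy sequence may belong to another copy. Of the 10, 7 were in last exons, where zinc finger genes hold their finger arrays. They were Zfp600, Zfp966, Zfp984 and Zfp987 and, named after their values were seen, Rex2, Gm13212 and Gm14434.

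Coding exon and 5' UTR peaks had another peak nearby more often than the rest of the list as a whole. Another peak centre lay within 12.5 kb, a distance often used to join enhancers into clusters, of 117 of 267 (43.8%, 37.8 to 50.0%) against 5302 of 17655 (30.0%, 29.4 to 30.7%), beside 30.2% of all peaks. The difference of 13.8 percentage points passed Fisher's exact test (adjusted p = 5.3e-06). Against promoter-TSS peaks, with 36.9%, the difference was 6.97 points (exact test, adjusted p = 0.0887). The share was 116 of 222 (52.3%, 45.5 to 59%) in 3' UTR peaks and 186 of 369 (50.4%, 45.2 to 55.6%) in peaks at transcript ends, both higher in value than here and not tested against it. By class it was 101 of 229 (44.1%, 37.6 to 50.8%) for coding exon peaks and 16 of 38 (42.1%, 26.3 to 59.2%) for 5' UTR peaks, which alone did not pass the test (exact test, adjusted p = 0.169). Within the span of the annotated transcript, 122 of 261 peaks (46.7%, 40.6 to 53%) had at least 1 other peak, and 110 of them an intronic one. No such share of other peaks in genes stands beside it, so this count is a description only. The highest number was 25 other peaks, around exon 10 of 19 of Tmtc1, a glycosyltransferase gene of the endoplasmic reticulum named after its value was seen, with a transcript span of 211923 bases. Peak1 had 13 others.

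**Figure D4:**
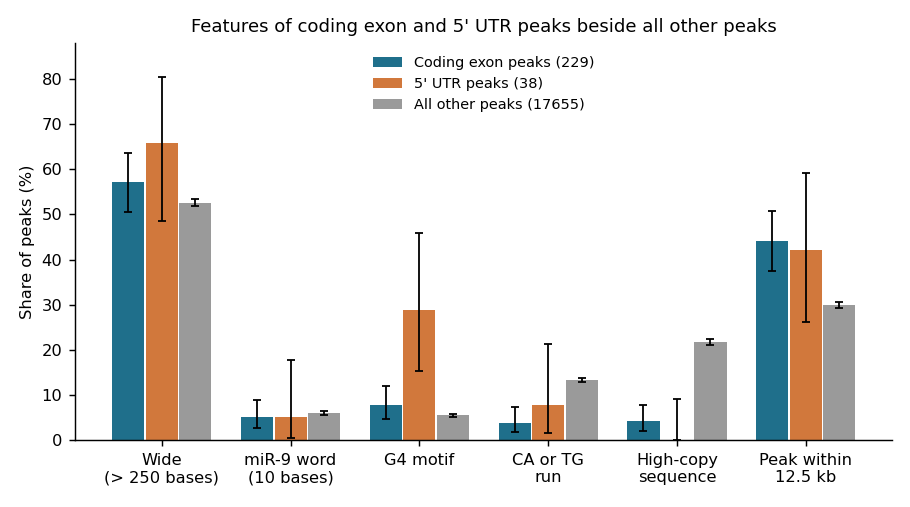
Share in percent of coding exon peaks (229), 5' UTR peaks (38) and all other peaks (17655) that were wide, held a miR-9 word, a G4 motif or a CA or TG run, were high copy, or had another peak within 12.5 kb, with exact 95% binomial intervals. The 5' UTR bar for G4 motifs (28.9%) lies above that of other peaks (5.57%), and both kinds lie below it for high-copy sequence.

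Of 21000 protein-coding genes, 255 (1.21%) carried a coding exon or 5' UTR peak, and gene lists were read against that share. Genes of the cytoskeleton had 1 of 26, Sptan1 (alpha-II spectrin), with 147 bases at exon 27 of 56. Matrix and adhesion genes had 1 of 34, Fn1, the fibronectin gene, with 131 bases at exon 27 of 45, at chromosome 1, 71609566 to 71609696. No gene had one among 32 TGFB pathway genes (upper bound 10.9%), 22 mRNA targets of cytoplasmic miR-9 (15.4%), 84 ribosomal proteins (4.30%), 69 protocadherins (5.21%), 44 collagens (8.04%), 11 mucins and 25 prolactin family genes. The TGFB list did not hold every related gene. Outside it, and named after their values were seen, were Acvr2a, an activin receptor gene, and Tgfbrap1, of a TGFB receptor associated protein. Acvr2a had 974 bases at exon 11 of 11 and Tgfbrap1 168 bases at exon 2 of 12. Chromatin regulators had 2 of 44 (4.55%, 0.56 to 15.5%), among them Arid1b. Transcription and RNA processing genes had 2 of 26 (7.69%, 0.95 to 25.1%), Hnrnpa2b1 and Med1, a Mediator subunit with 389 bases at exon 6 of 18. Protein synthesis and chaperone genes had 1 of 22, the translation factor gene Eif4g2 with 175 bases at exon 19 of 22, and immediate early genes had 1 of 23, Junb.

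Among the families, replication-dependent histones had 2 of 62 (3.23%, 0.39 to 11.2%), H2ac4 and H2ac10, where peaks of 874 and 925 bases covered the whole single-exon gene. Of these peaks 32.6% and 33.9% was sequence with 5 or more copies. Zinc finger genes named Zfp and alike had 8 of 460 (1.74%, 0.75 to 3.40%), with Zfp248 and Zfp61 in the 5' UTR and Zfp51 and Zfp449 in last exons beside the 4 high-copy ones. Hox genes had 1 of 39 (Hoxc9, 729 bases at exon 2 of 3) and keratins 1 of 112 (Krt10, 608 bases at exon 7 of 8). Olfactory receptors had 1 of 1107 (0.0903%, up to 0.502%), Olfr1281, a single-exon gene, with 95 bases. Vomeronasal receptors had 2 of 350 (0.571%, 0.069 to 2.05%), Vmn2r79 and Vmn2r92. The interval of the olfactory receptors lay below the 1.21% of all genes, and those of all the other lists and families named with an interval included it. These shares count genes and were not adjusted for the length of their coding sequence.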

How the data were processed

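The authors trimmed single-end ChIRP-seq reads (Trimmomatic 0.36), aligned them to mm10 with Bowtie2, removed duplicates, called peaks with MACS on the miR-9 capture over the input at more than 1 fragment shift on an unadjusted p-value, merged the calls with bedtools and annotated them with HOMER. SAMtools and deepTools are also named in the submitters' processing notes. The deposited table gives positions and a score, which the authors left at 0 for each peak.

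Annotations broken at commas were rejoined in 8093 peaks. Exons, genes and sequences were read from RefSeq for GRCm38.p6 (mm10). The recomputed feature was the same for 264 of the 267 peaks, and the numbered exon was found for 261. Genes were named by the transcript in the label (266 of 267). Peaks were compared with the rest of the list by two-sided Fisher's exact tests with Benjamini-Hochberg adjustment over 6 comparisons (SciPy 1.17.1). Intervals are exact (Clopper-Pearson), and all steps with a statistic were tested on simulated data.

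The text names the 10 widest coding exon and 5' UTR peaks, peaks with a miR-9 word, genes with several peaks and members of the gene lists, and says where others were added. Some of these genes are not reported here. The peaks, lists and tests were chosen with earlier results of these data known. Other references, motif settings, widths, copy limits and distances were tried as alternatives.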

Additional observations from a re-analysis of the deposited data

How the results depend on the processing

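No paired analysis was possible because each group had 1 library. Differences are in percentage points, coding exon and 5' UTR peaks minus the reference, and the cause of each change was not tested. Against promoter-TSS peaks alone the difference was -9.24 for wide peaks, 0.39 for miR-9 words, -5.72 for G4 motifs, -4.05 for CA or TG runs, -0.44 for high-copy sequence and 6.97 for a neighbouring peak, and none passed the test. Width also turned with 1 peak per gene (-5.49) and passed without chromosome 6 (7.23). The sign turned for 8-base words (0.93) and for G4 motifs in the central 150 bases (-1.28). In comparisons added after seeing the data, coding exon peaks alone missed the threshold for G4 motifs (2.29), and 5' UTR peaks alone, which number 38, missed it for CA or TG runs (-5.49) and a neighbouring peak (12.1). The share of peaks in coding exons and 5' UTRs was 1.83% without high-copy peaks and 5.27% for any base in a coding exon, and the share of coding exon peaks in first and single exons was 22.9% among wide peaks. Read depth was unknown, so what it limits could not be given.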

Other observations

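The gene that the deposited table assigned to a peak was often not the gene whose exon the peak lay in. After older symbols were matched, 64 coding exon peaks with a named exon gene had another gene, or for 2 of them none, in the column of the nearest TSS. None of the 38 5' UTR peaks did. The peak on exon 27 of Sptan1 was assigned to Mir6997 and that on exon 6 of Nap1l1 to Gm5176. The coding exon peak farthest from a TSS was at exon 7 of 10 of Fshr, the follicle-stimulating hormone receptor gene, at 198735 bases.

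Peaks per Mb of coding exon and 5' UTR sequence outside the TSS and end windows averaged 7.42 (exact Poisson 95% interval 6.56 to 8.37) and ranged between chromosomes. Chromosome 17 had 26 peaks, 15.3 per Mb (10.0 to 22.5), and chromosome 19 had 17, 14.9 per Mb (8.71 to 23.9). Chromosome 6 had 12.5 per Mb (7.85 to 19). Chromosome 14 had none of its 420 peaks in a coding exon or 5' UTR, which allows up to 2.93 per Mb, and chromosome 16 had 1 of 319, 0.93 per Mb (0.024 to 5.17). The density of all other peaks was 10.4, 11.1 and 11.3 per Mb of chromosome on 17, 19 and 6, and 3.36 and 3.24 on 14 and 16. These chromosomes were picked after their values were seen. Chromosome 11 had 10.6 other peaks per Mb and 7.87 coding exon and 5' UTR peaks per Mb of their sequence (4.87 to 12), while chromosome 8 had 6.79 and 11.2 (6.75 to 17.5).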
